A study of Mus musculus with 2 samples.

Results

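Choroid plexus spots were studied in a pair of spatial transcriptomics libraries, an assay that reads RNA from tissue at an array of barcoded spots and counts it as unique molecular identifiers (UMIs). Each spot covers several cells or parts of them, possibly of different types. Both libraries came from nude mice, a strain without a working thymus, 1 with a flat implant and 1 with a micropillar implant, and both sections were formalin-fixed and paraffin-embedded (FFPE). The labels give neither the animals' age nor how many animals or sections stand behind each library, and they give the tissue of both as bone. With 1 library per group every comparison of the implants is between 2 libraries without a replicate, so no p-value is given and all intervals are 95% and cover counting error only.

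The choroid plexus is the folded tissue in the brain ventricles that makes cerebrospinal fluid. Its epithelium moves ions, bicarbonate and water from blood to ventricle, and secretes carrier proteins and growth factors into the fluid. The tissue also holds a core of capillaries, stroma and macrophages, and its epithelium continues into the ciliated ependyma of the ventricle wall.

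The spots were chosen by their share of UMIs from 5 epithelial marker genes. These are Ttr (transthyretin, the carrier of thyroid hormone and retinol in the fluid), Folr1 (a folate receptor), Clic6 (a chloride channel family gene), Kl (klotho) and Kcne2 (a potassium channel subunit). Among spots with at least 200 UMIs, the 60 with the highest share were taken in each library, 120 of 6464 deposited spots. The comparison set was all other spots of that depth, 2149 flat and 2789 micropillar spots. Levels of the 5 markers are therefore a description of the choice and support nothing.

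The marker share fell from 8.24% to 0.431% over the 60 flat spots, with a median of 1.82%, and from 5.73% to 0.518% over the 60 micropillar spots, with a median of 1.72%. There was no gap at the last rank. The last flat member had 0.431% (1 marker UMI of 232) and the next spot 0.430% (7 of 1627). The last micropillar member had 0.518% (4 of 772) and the next spot 0.461% (2 of 434). In the flat library 40 members were at 1% or above, and in the micropillar library 39, so about the last 20 of each set rested on few marker UMIs. At least 2 of the 5 marker genes were seen in 45 flat and 49 micropillar members, and in 7 and 36 of the other spots.

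**Figure D1:**
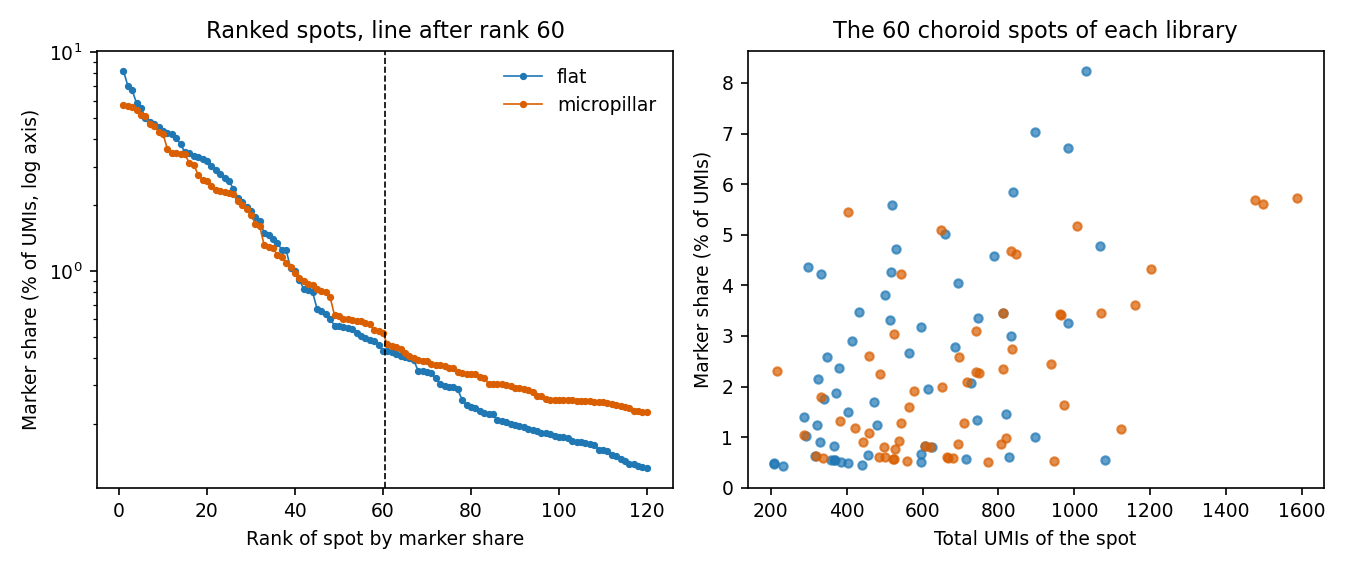
Left, marker share (% of UMIs, log axis) of the 120 top-ranked spots of each library against rank, with a dashed line after rank 60. Right, marker share against total UMIs for the 60 choroid spots of each library; the shares ran from 8.24% to 0.431% (flat) and from 5.73% to 0.518% (micropillar).

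Ttr carried most of the choice, with 729 UMIs in the flat members and 840 in the micropillar members, present in 60 and 59 of 60 spots. Clic6 had 156 and 189 UMIs in 42 and 49 spots, and Folr1 25 and 39 UMIs in 15 and 20 spots. Kcne2 had 13 and 9 UMIs and Kl 2 and 4, too few to describe single spots. The 60 members held 81.9% (flat) and 67.1% (micropillar) of all marker UMIs of spots at this depth. The remaining Ttr signal was higher in the micropillar section: scaled to CPM (counts relative to all UMIs of the same spots), other spots had 64.8 (flat) and 126 (micropillar), while the members had 21743 and 19772.

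By median, the chosen spots were shallower than the rest, most so in the later ranks. Their total UMIs ran from 208 to 1082 with a median of 515 in the flat library, and from 216 to 1588 with a median of 666 in the micropillar library, against medians of 780 and 900 in the other spots. They summed to 33528 and 42484 UMIs. Marker share and total UMIs went together over the 60 spots (Spearman rho 0.43 and 0.45, a description over spots of 1 section). In ranks 1 to 20, 21 to 40 and 41 to 60 by marker share, median UMIs were 675.5, 443.5 and 395 in the flat library. In the micropillar library they were 841, 614 and 549.5. The libraries shared 2135 barcodes, which name grid positions. Only 19 flat and 32 micropillar choroid barcodes were among these. That is too few to compare the positions of the 2 sets, and 0 were choroid spots in both. Against the labelled tissue, the osteoblast and matrix list (7 genes) held 0.0765% and 0.108% of UMIs in the other spots and the pan-neuronal list (5 genes) 0.571% and 0.517%. The bone-forming genes Ibsp, Sp7 and Dmp1 were at 0 UMIs in the choroid spots, and with 0 to 20 UMIs in all other spots of a library they could not be compared. The osteocalcin gene Bglap had 0 and 2 choroid UMIs against 208 and 435 elsewhere, and the bone list summed to 15 and 21 choroid UMIs. In all that follows, more cells of a type in a spot and more RNA per cell cannot be told apart.

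Choroid spots of both sections carried the secretory and transport genes of choroid plexus epithelium, with lower levels of neuronal genes, type I and III collagen genes and epidermal keratins such as Krt14 than other spots. A gene entered this comparison with at least 20 UMIs in the choroid spots, or 20 expected there at the rate of the other spots. In the flat library 300 genes entered, of which 66 (22%) were at least 2-fold higher in choroid spots and 94 (31.3%) at least 2-fold lower. In the micropillar library 396 genes entered, of which 64 (16.2%) were at least 2-fold higher and 85 (21.5%) lower. The split depends on scaling: with TMM factors it was 47 higher and 131 lower in the flat library and 52 and 122 in the micropillar library, and the median gene shifted by -0.46 and -0.32 on the log2 scale. With the mean of per-spot CPM the split was 59 and 63, and 56 and 58. Since marker-rich spots were set against the rest, these counts describe the chosen spots.

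The sections overlapped in which genes stood apart. Of the 284 genes other than markers that entered in both libraries, 43 were at least 2-fold higher in both, and 56 at least 2-fold lower in both. In the flat library alone 11 were higher and 36 lower, and in the micropillar library alone 1 was higher and 8 lower. None (0) was on opposite sides. Spearman's rho of the log2 ratios was 0.891 across these genes, which are not independent replicates.

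**Figure D2:**
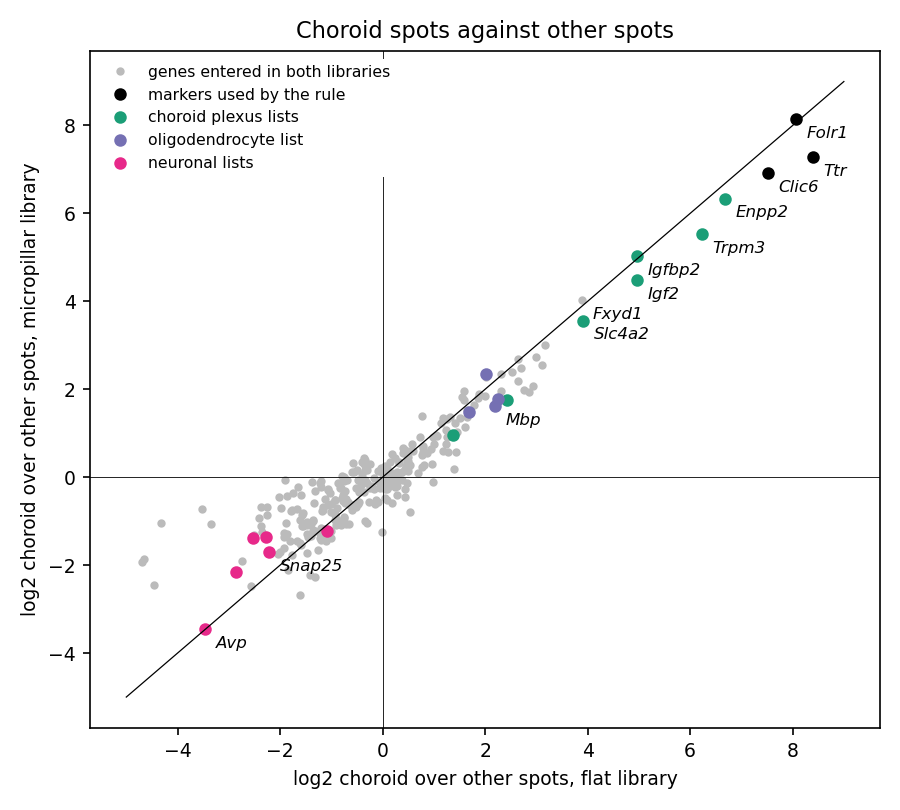
Log2 ratio of choroid over other spots in the flat library (x axis) and the micropillar library (y axis), 1 point per gene that entered in both, with the line of equal ratios. Enpp2 and Trpm3 lie nearest to the markers, the oligodendrocyte genes near 2 on both axes, and Snap25 and Avp below 0 on both. Oxt, at 0 UMIs in the flat choroid spots, is drawn at -2.86, its ratio with that 0 set to 3 counts.

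Among secreted products Enpp2 (chromosome 15, 54838901 to 54952892, minus strand), which encodes autotaxin, the enzyme that makes lysophosphatidic acid, had 410 UMIs in the flat choroid spots and 470 in the micropillar ones. That was 12229 CPM against 119 CPM in other flat spots, a log2 ratio of 6.68 (6.45 to 6.91), and in the micropillar library 11063 against 137 CPM, a log2 ratio of 6.34 (6.15 to 6.53). Enpp2 was seen in 49 of 60 flat members and 52 of 60 micropillar members. After every spot was thinned to 200 UMIs, 75.0% of flat choroid spots (62.1 to 85.3) and 65.0% of micropillar choroid spots (51.6 to 76.9) still had an Enpp2 UMI, against 2.37% and 2.87% of other spots. Without thinning these shares were 81.7% and 86.7%, against 10.1% and 12.8%. So the contrast remained at equal depth, in a gene the choice did not use.

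Growth factor genes were also higher. Igfbp2, an insulin-like growth factor binding protein, had 75 and 82 UMIs in the choroid spots, 2237 CPM against 71.7 CPM in the flat library and 1930 against 59.0 CPM in the micropillar library (log2 4.96 and 5.03). Igf2, the growth factor itself, had 43 and 40 UMIs, 1283 against 41.2 CPM and 942 against 41.9 CPM (log2 4.96 and 4.49). Sostdc1, a secreted antagonist of BMP and Wnt signalling, had 18 and 32 UMIs, Lbp (lipopolysaccharide-binding protein) 17 and 10, and Ace (angiotensin-converting enzyme) 11 and 9. The list of secreted factors, carriers and enzymes (12 genes) took 1.83% of UMIs in flat choroid spots (1.69 to 1.98) against 0.0366% elsewhere, and 1.58% (1.47 to 1.70) against 0.0379% in the micropillar library. Enpp2 alone gave 410 of its 614 UMIs and 470 of its 672. In each library 4 of its genes entered and all 4 were past 2-fold: Enpp2, Igfbp2 and Igf2 in both, Col9a3 in the flat library and Sostdc1 in the micropillar library. By rate, 10 and 11 of the 12 were higher in choroid spots, most on few UMIs. Those were all the genes of the list with a UMI there, so the count mostly reports detection. The same share over all genes was not computed.

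Transport genes were led by Trpm3 (chromosome 19, 22139046 to 22995410, plus strand), a cation channel gene, with 165 and 163 UMIs. Its level was 4921 CPM against 65.7 CPM in the flat library (log2 6.23, 5.89 to 6.56) and 3837 against 83.6 CPM in the micropillar library (log2 5.52, 5.23 to 5.81). Thinned to 200 UMIs, 48.3% and 41.7% of choroid spots had a Trpm3 UMI, against 1.02% and 1.90% of others. Slc4a2, a chloride/bicarbonate exchanger, had 34 and 39 UMIs (log2 3.92 and 3.56). Slc4a10, a sodium-dependent bicarbonate transporter also expressed by neurons, had 34 and 26 UMIs and the lowest ratio of the entered transporters, 1.37 and 0.97. Some epithelial transporters with few UMIs had most of them here: Kcnj13, a potassium channel gene, had 7 UMIs in the flat choroid spots against 3 in all other flat spots, and 8 against 3 in the micropillar library. Slc4a5, a bicarbonate transporter, had 5 against 2 and 6 against 1. The carbonic anhydrase gene Car14 had 13 and 10 choroid UMIs. The water channel gene Aqp1 had only 1 and 5, and Slc12a2 0 and 2, so neither could be described at this depth. Over 22 genes the transport list took 0.910% of UMIs (0.811 to 1.02) against 0.0728% in the flat library, and 0.734% (0.655 to 0.820) against 0.0704% in the micropillar library. All 3 entered genes were past 2-fold in the flat library and 2 of 3 in the micropillar library.

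Receptor and regulator genes were sparse but had a higher rate in the same spots, with most of their UMIs elsewhere. The receptor and signalling list (9 genes) had 61 and 79 UMIs, 0.182% and 0.186% of the total, against 633 and 881 UMIs in the other spots. Its log2 ratios were 2.63 (2.23 to 3.02) and 2.71 (2.36 to 3.04). None (0) of its genes entered. Pcp4l1 had its most UMIs, 13 and 17. Mfrp had 10 choroid UMIs against 2 in all other flat spots, and 7 against 7 in the micropillar library. Tmem72 had 5 against 4 and 14 against 3. The prolactin receptor gene Prlr had 12 and 9 UMIs and the serotonin receptor gene Htr2c 7 and 6. The transcription factor list (6 genes) had 17 and 30 UMIs, nearly all from Msx1 (10 and 11) and the cell cycle inhibitor gene Cdkn1c (7 and 15). The other spots had 84 and 149 UMIs of that list, for log2 ratios of 3.71 and 3.88. Otx2, a factor that specifies choroid plexus, had 0 UMIs in the flat and 1 in the micropillar choroid spots. Epithelial junction genes (12 measured) had 48 and 63 UMIs (log2 1.79 and 1.54), of which Spint2, a protease inhibitor of epithelia, gave 30 and 32. The claudin gene Cldn2 of choroid epithelium had 4 and 3 UMIs.

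Of the 20 genes with the highest ratios in both libraries outside the markers, Fxyd1, a regulator of the sodium pump, followed the genes above with 91 and 119 UMIs (log2 3.89 and 4.03). Lipid and metal carriers were among them: Clu (clusterin) had 123 and 140 UMIs (log2 2.53 and 2.39), Trf (transferrin) 51 and 47 (2.93 and 2.08), Pltp (phospholipid transfer protein) 29 and 35 (2.71 and 2.48) and Dbi (acyl-CoA binding protein) 33 and 36 (2.99 and 2.73). Timp3, Gas6, Igfbp7 and Tgfbr3, genes of matrix and growth factor handling, had log2 ratios from 2.32 to 2.87 in the flat library and from 1.93 to 2.70 in the micropillar library. Car2, a carbonic anhydrase of choroid epithelium and of oligodendrocytes, had 2.31 and 2.34, and Crocc, a gene of the ciliary rootlet, 2.02 and 2.29. The interferon-inducible Ifi27 had 597 CPM against 66.2 in the flat library and 471 against 58.7 in the other. The remaining 3 are known from glia, though not necessarily from glia alone. They are Gfap (astrocytes, 3.12 and 2.55), Mobp (myelin, 2.02 and 2.35) and Cldn11 (tight junctions, among them those of myelin, 2.77 and 1.99). Which cells of the spots carried each of these 20 genes was not determined.

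The spots also carried genes of other cell types, and whether those cells adjoined the epithelium was not tested. Myelin genes were the largest such group: the oligodendrocyte list (7 genes) took 1.26% of UMIs (1.14 to 1.38) against 0.289% in the flat library, and 1.17% (1.07 to 1.28) against 0.353% in the micropillar library. Mbp, the myelin basic protein gene, had 159 and 168 UMIs (log2 2.19 and 1.62), and all 4 genes of that list that entered were past 2-fold in both libraries, the lowest being Cnp (1.69 and 1.48). Ependyma and motile cilia genes (20) had 62 and 86 UMIs, 0.185% against 0.0249% and 0.202% against 0.0317%, with Foxj1, the regulator of motile cilia, at 10 and 11 UMIs and Tppp3 at 12 and 20. Astrocyte genes (7) took 0.239% against 0.151% and 0.245% against 0.169%. In ranks 1 to 20 alone they took 0.168% and 0.148%. Within that list Gfap passed 2-fold, while the gap junction gene Gja1 had a log2 ratio of 0.41 and -0.11.

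Vascular and immune genes were moderately higher. Blood genes (4) had 105 and 96 UMIs (log2 1.55 and 1.18), nearly all from the globin genes Hbb-bs (58 and 54) and Hba-a2 (42 and 38). Endothelial genes (10) had 23 and 32 UMIs (log2 1.45, 0.78 to 2.05, and 1.50, 0.95 to 2.01). Macrophage and microglia genes (14) had 65 and 59 UMIs (log2 1.51, 1.13 to 1.87, and 0.92, 0.53 to 1.30), led by Cd74, of antigen presentation, with 28 and 18, while Mrc1 and Lyz2 were at 0 in both. In ranks 1 to 20, 21 to 40 and 41 to 60 this list took 0.102%, 0.242% and 0.274% in the flat library. In the micropillar library it took 0.148%, 0.128% and 0.137%. Ranks 61 to 120, outside the chosen set, had 0.143% and 0.145%. Fibroblast and mural genes (13) summed to less, 0.149% against 0.383% and 0.177% against 0.520%, through the collagen genes Col1a1, Col1a2 and Col3a1, the 3 that entered, which were past 2-fold lower in both libraries. In each library 7 of the 13 genes had a UMI here. The 4 other than these collagens had a higher rate than elsewhere, in both cases among them Dcn (2 and 6 UMIs) and the pericyte gene Rgs5 (6 and 5). Genes at 0 UMIs cannot be in that count. At this depth even 1 UMI can exceed the rate elsewhere, so no rise of these genes is read from it. The direction of the collagens depended on depth in the flat library: among spots with at least 500 UMIs, Col3a1 had a log2 ratio of 0.63 there.

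Neuronal genes were lower. The pan-neuronal list took 0.119% of UMIs in flat choroid spots against 0.571% elsewhere (log2 -2.26, -2.74 to -1.81), and 0.188% against 0.517% in the micropillar library (log2 -1.46, -1.79 to -1.14). Snap25, of synaptic vesicle release, had 26 and 38 UMIs, 775 against 3585 CPM and 894 against 2898 CPM. Hypothalamic peptide genes (5) had log2 ratios of -4.06 and -2.78. Avp had 4 and 8 UMIs (log2 -3.46 and -3.45). Oxt had 0 in the flat library, 7.27-fold lower with that 0 set to 3 counts, and 14 in the micropillar library (log2 -2.16). The synuclein gene Sncb (-2.73 and -1.92), the neuronal noncoding RNA Snhg11 (-1.84 and -2.11) and the cortical glutamate transporter gene Slc17a7 (-1.08 and -1.22) were lower too. The cortex list (7 genes) had 18 and 16 UMIs (log2 -1.21 and -1.14). Lists of hippocampus (9 genes; 7 and 16 UMIs), thalamus (10 genes; 20 and 28) and habenula (8 genes; 3 and 3), which adjoin the ventricles, had counting intervals that included 0 in both libraries.

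The striatum list (8 genes) went the other way, 0.328% against 0.235% and 0.306% against 0.146%, mostly on the count of 1 gene. Ppp1r1b, which encodes DARPP-32 and is a classic striatal marker, gave 95 of its 110 UMIs in the flat library and 110 of 130 in the micropillar library (log2 0.76, 0.45 to 1.06, and 1.40, 1.11 to 1.68). Its other genes had 0 to 6 UMIs each: Penk had log2 ratios of -0.74 and -0.58, while Rgs9 had 0.27 and 1.42 and Adora2a 0.80 and 0.46. In ranks 1 to 20, 21 to 40 and 41 to 60 the striatum list took 0.495%, 0.184% and 0.243% of UMIs in the flat library. In the micropillar library it took 0.285%, 0.304% and 0.342%. Which cells of the spots carried Ppp1r1b was not tested. Among skin genes, Krt14 (1 and 12 UMIs), Krtdap (1 and 5) and Tchh (1 and 13) had log2 ratios of -4.69, -4.46 and -4.65 in the flat library and -1.93, -2.45 and -1.87 in the micropillar library. The skin and muscle list (8 genes) had 5 and 24 UMIs, and the glandular genes of the micropillar library (5 genes) 0 and 16. Immediate early and heat shock genes (8) had 7 and 11 UMIs (log2 -1.85 and -1.22). Oxidative phosphorylation genes (10) took 0.486% against 0.454% and 0.490% against 0.429%, with intervals of the log2 ratio that included 0 (-0.13 to 0.32 and -0.02 to 0.39) and with ratios under 0 once the TMM shifts of -0.46 and -0.32 are applied. The median of its entered genes was -0.50 in the flat library, of opposite sign to its sum, and 0.10 in the micropillar library. Cox8a was its highest entered gene (0.95 and 0.65) and Uqcrc1 its lowest (-0.90 and -0.97). Secretory pathway genes (9) took 0.477% against 0.250% and 0.407% against 0.263%, led by the chaperone gene Hsp90b1 with 99 and 92 UMIs (log2 1.23 and 0.75), and Hspa5 had 21 and 29 (1.14 and 1.24).

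**Figure D3:**
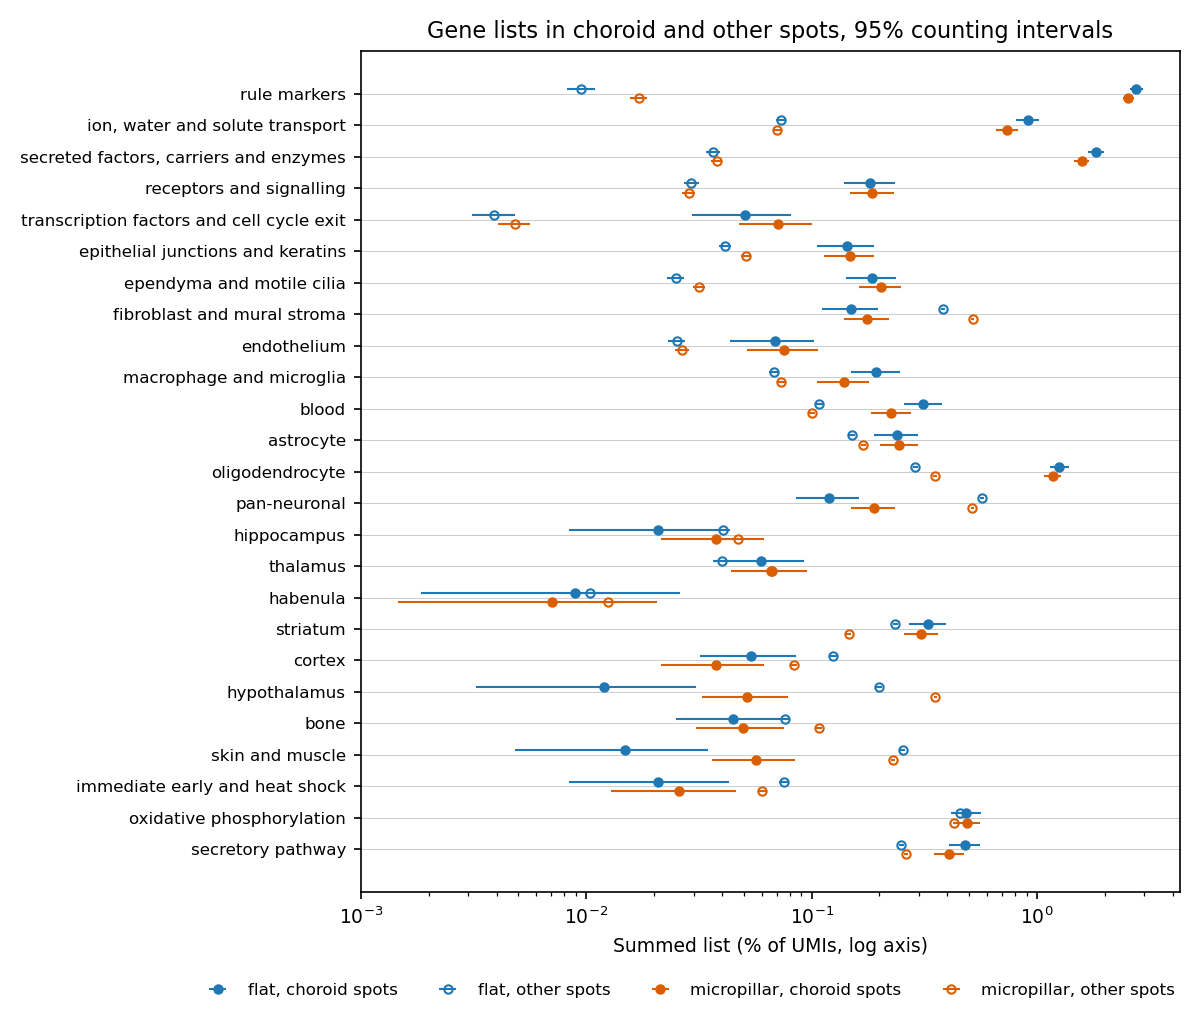
Share of UMIs (%, log axis) from each gene list in choroid spots (filled) and other spots (open) of the flat and micropillar libraries, with exact 95% counting intervals. The choroid plexus, ependyma and oligodendrocyte lists lie to the right in choroid spots of both libraries, and the pan-neuronal, hypothalamus, stroma, and skin and muscle lists to the left; the gland list, at 0 UMIs in flat choroid spots, is not drawn.

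The members were not alike. They were ordered by marker share in bins of 20. In the flat library Enpp2 went from 17628 CPM in ranks 1 to 20 to 13668 in ranks 21 to 40 and 2847 in ranks 41 to 60, and was 582 CPM in ranks 61 to 120 and 110 CPM beyond. In the micropillar library it went from 19268 to 7278 and 2305 CPM, and then 622 and 131. Trpm3 fell likewise, from 7940 to 4362 and 1160 CPM in the flat library and from 6569 to 2879 and 598 in the micropillar library. So Enpp2 and Trpm3 declined along the ranks with the markers, and ranks 61 to 120 still had more Enpp2 than the spots beyond.

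Myelin genes did not follow this order. The oligodendrocyte list took 0.685% of UMIs in ranks 1 to 20 of the flat library, 1.61% in ranks 21 to 40 and 1.71% in ranks 41 to 60, and 0.701%, 1.22% and 1.86% in the micropillar library. Mbp had 2622, 6689 and 5694 CPM in these flat bins and 2299, 5039 and 5379 CPM in the micropillar bins. In ranks 61 to 120, outside the chosen set, the oligodendrocyte list took 0.968% (flat) and 0.790% (micropillar), more than in ranks 1 to 20. Over the bins up to rank 60, Snap25 rose from 219 to 1066 and 1265 CPM and from 328 to 880 and 1793 CPM. It stayed under the 3620 and 2905 CPM of spots beyond rank 120. Apoe, the apolipoprotein E gene, differed between the sections in this respect: 4881, 4459 and 5061 CPM in the flat library but 6623, 4239 and 3330 CPM in the micropillar library. The secretory pathway list had 0.597%, 0.339% and 0.453% of UMIs in the flat bins and 0.591%, 0.336% and 0.196% in the micropillar bins. Apoe and Mbp were picked out after their values were seen. Over the 60 spots, the share of Enpp2 had a Spearman rho with marker share of 0.68 (flat) and 0.85 (micropillar), Trpm3 0.67 and 0.72, and Mbp -0.22 and -0.21. These points share a library and a denominator, and are given as a description.

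**Figure D4:**
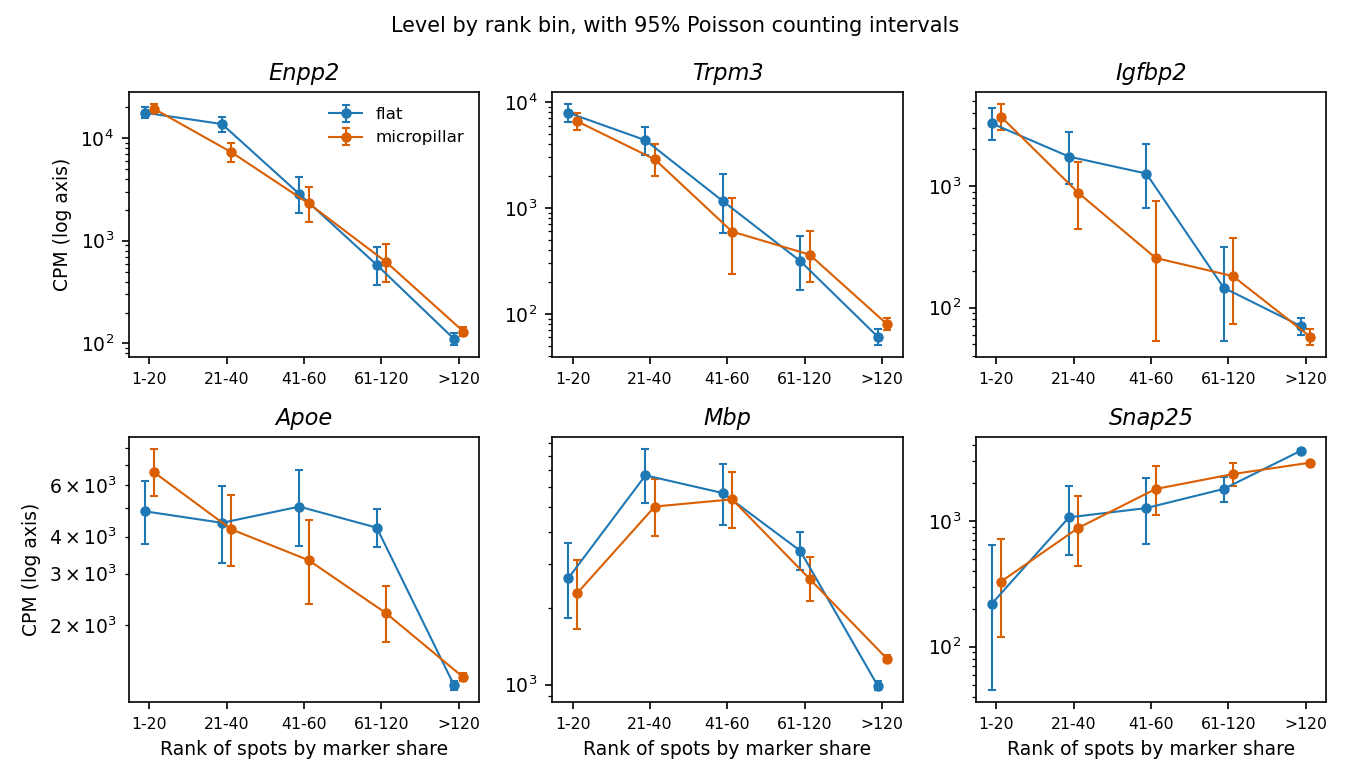
Level (CPM, log axis) of 6 genes in bins of spots ranked by marker share, for the flat and micropillar libraries, with exact 95% Poisson counting intervals. Enpp2, Trpm3 and Igfbp2 fall along the ranks, Mbp is lower in ranks 1 to 20 than in the next 2 bins of both libraries, and Snap25 is highest beyond rank 120.

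Between the implants, the leading epithelial genes of the choroid spots stayed within 2-fold. In each library the spots were chosen for high marker share, and over those spots Enpp2 and Trpm3 rose with it. For Enpp2, Spearman's rho with marker share was 0.68 (flat) and 0.85 (micropillar), and for Trpm3 0.67 and 0.72. The ratios of these genes therefore depend on how the spots were chosen, and a difference between the implants apart from that choice was not tested. Enpp2 had 12229 CPM in the flat and 11063 CPM in the micropillar choroid spots, a log2 ratio of micropillar over flat of -0.14 (-0.34 to 0.05). Igfbp2 had -0.21 (-0.68 to 0.26), Igf2 -0.45 (-1.10 to 0.21), Slc4a2 -0.14 (-0.84 to 0.56) and Fxyd1 0.05 (-0.36 to 0.46). Trpm3 was lower in the micropillar library, 3837 against 4921 CPM (-0.36, -0.68 to -0.04). The transport list had a log2 ratio of -0.31 (-0.54 to -0.08) and the secreted list -0.21 (-0.37 to -0.05), both below 0 on counting error alone. The markers that chose the spots had -0.12 (-0.24 to 0.01). Receptor genes had 0.03 (-0.47 to 0.54), ependymal genes 0.13 (-0.36 to 0.63) and oligodendrocyte genes -0.10 (-0.29 to 0.09). DESeq2 size factors moved all ratios of micropillar over flat up by 0.23, which put every ratio of this paragraph above 0 except those of Trpm3, Igf2 and the transport list.

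Among the 293 genes with at least 20 UMIs in the choroid spots of 1 library, 14 (4.78%) were at least 2-fold higher in the micropillar library and 10 (3.41%) at least 2-fold lower. With DESeq2 size factors these were 25 and 7. The median log2 ratio was 0.02, with quartiles of -0.27 and 0.38, and the same genes in the other spots had a median of -0.01 with quartiles of -0.13 and 0.11. Intervals lay above 0 for 14 genes and below 0 for 20.

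Of the 10 highest ratios 9 are described here. They belonged to genes with 6 to 11 UMIs in the flat choroid spots. Map2k1, a kinase of the MAP kinase cascade, had 6 UMIs in the flat and 22 in the micropillar choroid spots (log2 1.53, 0.19 to 3.12). The scaffold gene Mapk8ip3 had 6 and 21 (1.47), the proton pump subunit gene Atp6v1g2 8 and 27 (1.41), and the microtubule-linker gene Clip3 6 and 20 (1.40). Mtch1, Ywhae, Aak1, Pitpna and Rabac1 had 9 to 11 and 25 to 30 UMIs (log2 1.11 to 1.35). They entered through the micropillar library, where they are high, and were then picked for their ratio, so their intervals are a description. In the other spots these genes had log2 ratios from -0.30 to 0.23, 5 of 9 in the same direction and 0 past 2-fold. Neuronal genes moved with them: the pan-neuronal list had 40 UMIs in flat and 80 in micropillar choroid spots (log2 0.66, 0.09 to 1.24), and -0.14 in the other spots. The part of neuronal RNA in these 9 ratios was not tested. When the spots were ranked after thinning to 200 UMIs, their log2 ratios ran from -0.33 (Clip3) to 0.73 (Map2k1), so none (0) of the 9 stayed past 2-fold.

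The lowest ratios were immunoglobulin genes. Ighj1, a joining segment of the heavy chain locus (chromosome 12, 113429781 to 113429833, minus strand), had 41 UMIs in 8 of 60 flat choroid spots and 2 UMIs in 1 micropillar choroid spot (log2 -4.70, -7.79 to -2.75). Igkc, the kappa light chain constant region, had 20 UMIs in 9 flat choroid spots and 0 in the micropillar ones. With that 0 set to 3 counts it was 8.45-fold lower. These transcripts mark cells that make antibody, and they lay in few spots. The top spot for each gene held 34.1% of the Ighj1 and 30% of the Igkc UMIs of the flat choroid spots. For Igkc that was rank 57, with 1 marker UMI of 208 UMIs and 0 UMIs of Enpp2 or Trpm3. For Ighj1 it was rank 19, with 32 marker UMIs of 982 and 21 Enpp2 UMIs. In the other spots the log2 ratios were -0.65 and 0.34. Under every alternative run, Ighj1 stayed at -3.67 or lower and Igkc at -1.37 or lower.

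Below these, Ppp1r14a, an inhibitor of myosin phosphatase also found in oligodendrocytes, had 22 and 7 UMIs (log2 -1.99, -3.46 to -0.72), and Sez6l2 25 and 10 (-1.66, -2.89 to -0.56). Gstp1, of glutathione conjugation, had 33 and 14 (-1.58, -2.59 to -0.64). Lgals1 (galectin), Ost4 (a subunit of oligosaccharyltransferase), Gaa (lysosomal glucosidase) and the splicing factor gene Sfpq had log2 ratios from -1.28 to -1.06. Col9a3, a collagen gene of the secreted list, had 25 UMIs in 17 flat choroid spots and 15 in 11 micropillar choroid spots (log2 -1.08, -2.11 to -0.10). It was well above other spots in each library, with log2 ratios of 6.13 and 4.40. These genes entered through the flat library, apart from Sfpq, which passed in both, and were picked for their ratio, so their intervals too are a description. In the other spots the 10 genes had ratios from -0.65 to 0.66, 4 of 10 in the same direction and 0 past 2-fold. Among spots of at least 500 UMIs, where the flat set kept 32 of its 60 members, Col9a3 had -0.37 and Lgals1 -0.47. Under the ranking of thinned spots Sez6l2 had -0.31 and Gaa -0.41. With 1 library each, the section and the implant cannot be told apart.

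**Figure D5:**
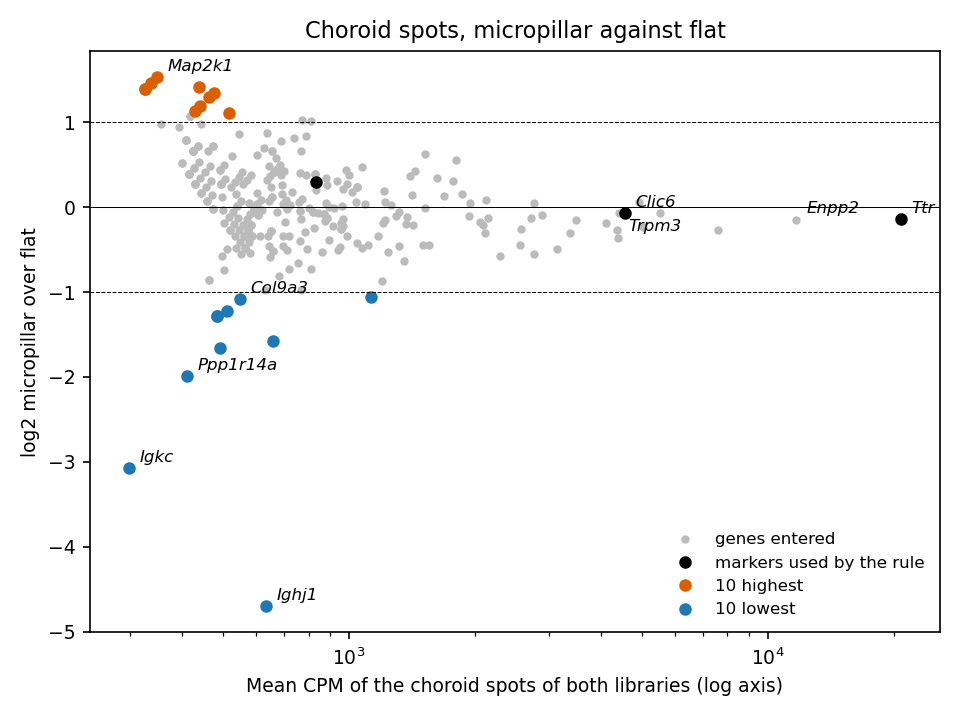
Log2 ratio of micropillar over flat within the choroid spots against mean CPM (log axis) for the 293 genes that entered, with dashed lines at 2-fold. The abundant Ttr, Enpp2, Clic6 and Trpm3 lie between -0.36 and 0, the 10 highest named genes are of low level, and Ighj1 is at -4.70. Igkc, at 0 micropillar UMIs, is drawn at -3.08, its ratio with that 0 set to 3 counts.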

How the data were processed

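The values are the authors' deposited UMI counts, unnormalised whole numbers for each gene in each spot. Space Ranger 2.0.1 wrote them, per the file headers, whereas Cell Ranger 7.2.0 with build mm10 is named in the submitters' processing notes and a directional mRNA kit in the labels' protocol. Probe set and aligner settings: not given in the sources used here. Positions of spots were not used.

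The members and the 26 gene lists were chosen with earlier results of these data known. Of 248 list entries, 8 were not analysed here, since no such symbol is listed. Both libraries list 19465 genes, and of 11 symbols on 2 rows the row with more counts was used. Spots under 200 UMIs were left out. Counts were summed over spots and divided by total UMIs. Ratios carry exact Clopper-Pearson 95% counting intervals. For the ratio itself a sum of 0 was set to 3 counts, which is not the limit of that interval. Named by rule were the markers, the 20 highest and 8 lowest genes of choroid over other spots in both libraries, the 10 highest and 10 lowest of micropillar over flat whose sign held under TMM factors and under per-spot CPM averaged over spots, and of each list the most abundant, highest and lowest gene. Other list genes were named after their values were seen. Some genes that the rule selects are not reported here. Coordinates are from GENCODE M21 (mm10). Doublets were not called, because spots are not cells. The procedure was tested on simulated data.

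Scripts used Python 3.11.15, numpy 2.4.6, scipy 1.17.1, pandas 2.3.3 and matplotlib 3.10.9, and R 4.3.3 with edgeR 4.0.16 (TMM) and DESeq2 1.42.0 (size factors). Alternatives (14) covered the spot minimum, number of spots, ranking markers, thinning, totals, scaling, spot weight, gene minimum and pseudocount.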

Additional observations from a re-analysis of the deposited data

Results flagged for a closer look

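Marker UMIs also appeared in spots too shallow to be ranked, which no comparison above used. In the flat library 952 spots under 200 UMIs held 22 marker UMIs of 91977, a share of 0.0239% (0.0150 to 0.0362), against 0.00949% in the ranked spots that remain once the 60 highest are taken. In the micropillar library 454 such spots held 26 of 46711, a share of 0.0557% (0.0364 to 0.0815), against 0.0171%. The shallow spots had no highest spots removed, so the shares are not like for like. At least 2 marker UMIs were seen in 2 flat and 5 micropillar shallow spots, and the shallow spots held 19 and 24 Enpp2 UMIs.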

How the results depend on the processing

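Counts of genes 2-fold higher in choroid spots (66 flat, 64 micropillar) and 2-fold higher or lower in micropillar choroid spots (14 and 10) stayed within 1.5 times except as follows. With 30 spots they were 40, 36, 4 and 3, with a gene minimum of 10 UMIs 185, 207, 134 and 77, and with 50 UMIs 21, 16, 0 and 1, since other numbers of genes entered. With 100 spots the implant counts were 32 and 31, with ranking on thinned spots 83 and 30, with DESeq2 size factors 25 genes were higher, with at least 500 UMIs per spot 29 were lower, and with ranking without Ttr 5 were lower; the cause was not tested. Values past 2-fold that changed sign were Aak1, micropillar over flat, at -0.076 (500 UMIs), -0.020 (without Ttr) and -0.011 (thinned), Clip3 at -0.33 (thinned), and, with 500 UMIs in the flat library, Col3a1 at 0.63 and the median of the fibroblast and mural list at 0.75 for choroid over other spots. Medians under 2-fold also changed sign under some alternative: oxidative phosphorylation in all 3 comparisons, and micropillar over flat for the markers and the transport, secreted and oligodendrocyte lists. Of 1064 named-gene values 913 moved by less than their interval and 146 by more, and of 266 list medians 217 and 48. No paired analysis was possible because each group has 1 library. Depth limits most choroid genes: 300 and 396 of 19465 had enough UMIs to enter.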
